A study of Mus musculus with 6 samples.

Results

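The bone morphogenetic protein (BMP) pathway and its Id target genes were examined in EDL (extensor digitorum longus), a predominantly fast-twitch hindlimb muscle. The mice had a muscle-specific knockout of Akt1 and Akt2. The 10 genes were taken by symbol from the table of counts: the ligand Bmp4, its antagonist Nog, the receptors Bmpr1a, Acvr1 and Bmpr2, the signal transducers Smad1 and Smad5, and the targets Id1, Id2 and Id3. All 10 were found among the 24411 genes of the table, and all 10 were among the 12892 genes that passed the filter on low counts.

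RNA was sequenced from EDL of 3 mAktDKO mice (Mlc1f-Cre:Akt1/2-floxed) and of 3 control mice that carried the same floxed Akt1 and Akt2 alleles without Cre. Both groups were C57BL/6J mice at 50 weeks of age, and the study's methods state that males were used unless otherwise noted. The Mlc1f knock-in drives Cre in differentiated fibres, chiefly fast ones, and the paper describes its promoter as little active in satellite cells. Akt in the single cell types of the muscle was not measured here. Each library is one mouse, and the p-values measure the spread between these mice. The mAktDKO mice are numbered 1 to 3 and the control mice 2 to 4, as in the table. Total counts were between 13738795 and 15445523 per mouse, and 3 counts are 0.194 to 0.218 per 1000000 of these unscaled totals. CPM is counts per 1000000 of the library size scaled by TMM, unless library totals are named. Akt2 was at 49.1 to 52.7 CPM in mAktDKO and 133 to 172 CPM in control EDL (edgeR adjusted p = 0.000923), and Akt1 was at 51.4 to 58.9 and 65.5 to 66.5 CPM (edgeR adjusted p = 0.114). The log2 fold change of Akt1 was -0.25, and -0.11 with unscaled library totals (edgeR adjusted p = 0.489). Control mouse 2 stood apart from the other mice, with a chi-square per degree of freedom of 26.9 to 69.8 against each of them, where pairs of the other mice had 7.57 to 28.5. Genes of fast fibres, which define the labelled muscle, summed to at least 129956 CPM in every mouse.

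BMP ligands bind a complex of type I receptors (such as BMPR1A and ACVR1) and type II receptors (such as BMPR2), which phosphorylates SMAD1 and SMAD5. With SMAD4 these enter the nucleus and activate genes such as Id1, Id2 and Id3, whose products bind E proteins and keep them from acting with MyoD-type factors at E-box sequences. Noggin, the product of Nog, binds BMP ligands outside the cell. In skeletal muscle BMP signalling is known to favour muscle mass and to limit the loss of mass after denervation.

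None of the 10 genes was called at an adjusted p under 0.01 by edgeR's quasi-likelihood test, beside 0.0233% of all genes tested, and none at an adjusted p under 0.05, beside 1.18%. DESeq2 likewise called none of them at 0.01, beside 3.09% of the genes it adjusted, and called Id2 alone at 0.05, beside 7.33%. At an unadjusted edgeR p under 0.05 there were 3 of the 10, Id2, Nog and Bmpr2, beside 24.5% of all genes. With library totals in place of TMM there were 6 of the 10, with Bmpr1a, Smad1 and Smad5 in addition, beside 28% of all genes. That scaling moved the whole table upward: 70.4% of all genes were above 0, against 52.5% with TMM, and 23% were higher and 5.02% lower at an unadjusted p under 0.05, against 11.4% and 13.1%. The mice of the groups did not overlap in 4 of the 10, beside 31.1% of all genes: Id2, Bmpr1a and Bmpr2 were higher in each mAktDKO mouse than in any control mouse (14.6% of all genes), and Nog was lower in each (16.6%). With library totals Smad1 and Smad5 were also higher without overlap, beside 26.5% of all genes higher and 6.92% lower. The log2 fold change (mAktDKO against control) was above 0 in 6 of the 10, beside 52.5% of all genes, with a median of 0.13 against 0.017 over all genes. With 10 genes each share moves in steps of 10%, and nothing particular to the 10 genes is read from them.

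**Figure D1:**
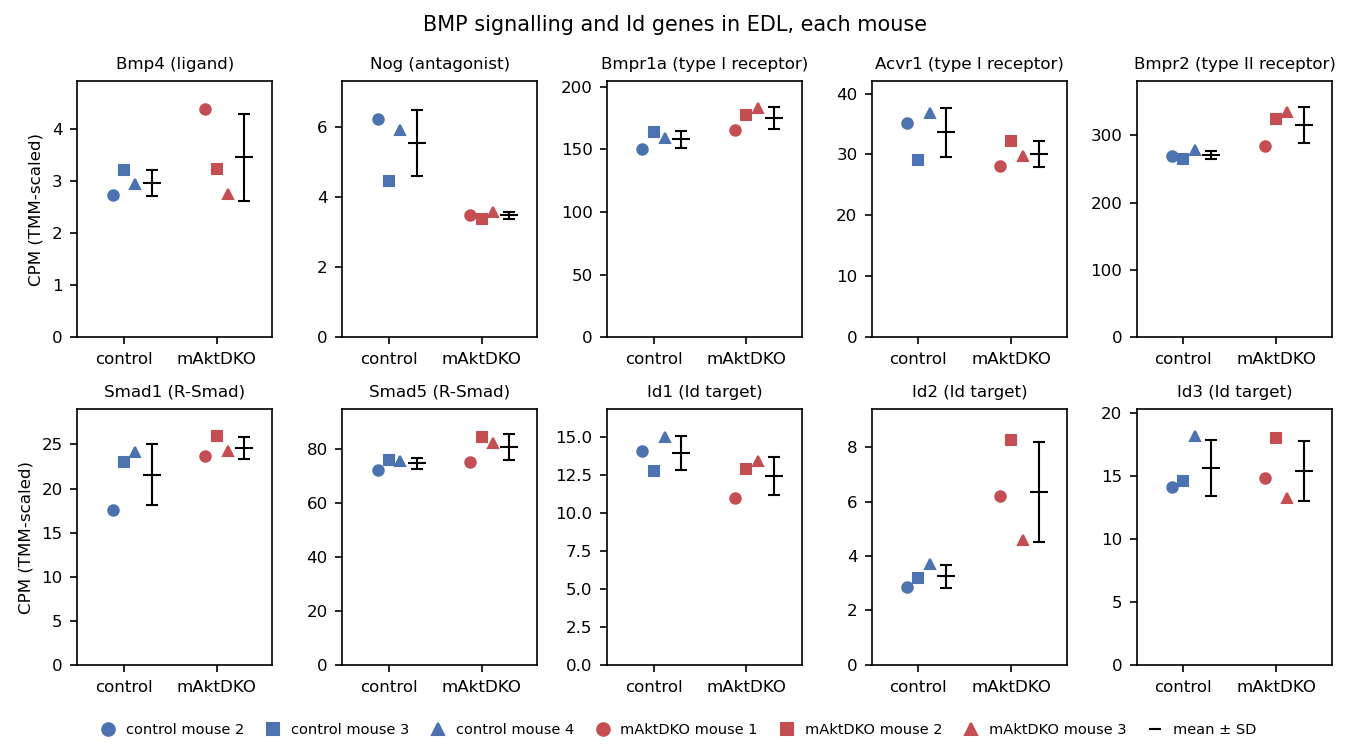
CPM (scaled by TMM) of the 10 genes, 1 panel a gene, with 1 point per mouse and the mean ± SD of 3 mice beside each group. The groups separate in Id2, Nog, Bmpr1a and Bmpr2 and overlap in the other panels, and Id2 has the largest shift between the means relative to its level, from 3.26 to 6.36 CPM.

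Among the Id genes the widest contrast was between Id2, at nearly double the control level, and Id1 and Id3, whose groups overlapped. Id2 (chr12:25093799-25097140, minus strand, mm10) is an inhibitor of basic helix-loop-helix factors that also has roles in fat cells and lymphocytes. Its level was 6.21, 8.27 and 4.59 CPM in mAktDKO mice 1, 2 and 3, and 2.87, 3.21 and 3.70 CPM in control mice 2, 3 and 4. Every mAktDKO mouse was above every control mouse, with mAktDKO mouse 3 nearest to the controls. The means were 6.36 ± 1.84 and 3.26 ± 0.421 CPM (SD, n = 3 each), a 1.96-fold difference with a 95% interval of 1.36 to 2.83. The log2 fold change was 0.97 (SE 0.23) with an edgeR adjusted p of 0.0677 over all genes, and Id2 ranked 485 by p. DESeq2 gave 0.96 (SE 0.29) with an adjusted p of 0.0213. The values rest on 41 to 138 counts a mouse, and the SD among mAktDKO mice was 28.9% of their mean against 12.9% among controls.

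Id1 (chr2:152736251-152737410, plus strand), the Id gene most used as a readout of SMAD1 and SMAD5 activity, had 11.0, 12.9 and 13.4 CPM in mAktDKO and 14.1, 12.8 and 15.0 CPM in control EDL. The groups overlapped, since control mouse 3 lay below mAktDKO mice 2 and 3. Its log2 fold change was -0.16 (SE 0.12, edgeR adjusted p = 0.412), -0.028 with library totals and -0.084 without mAktDKO mouse 1, and the 95% interval of the fold, 0.740 to 1.08, includes 1. Id3 (chr4:136143497-136145755, plus strand), another Id gene induced by BMP, had 14.9, 18.0 and 13.3 CPM in mAktDKO and 14.1, 14.7 and 18.2 CPM in control EDL. Its means were 15.4 ± 2.41 and 15.7 ± 2.23 CPM (SD, n = 3 each), and the log2 fold change was -0.021 (SE 0.15, edgeR adjusted p = 0.945) with a 95% interval of -0.35 to 0.31. The sign of this near-0 difference turned with the scaling, to 0.12 with library totals, a scaling that moved the median of all genes from 0.017 to 0.16. Id4, the remaining member of the family, was at 3.18 ± 0.847 CPM in mAktDKO and 2.88 ± 0.638 CPM in control EDL (SD, n = 3 each) and overlapped between the groups.

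To set Id2 beside Id1 and Id3 without any scaling, their counts were divided within each mouse. Id2 counts were 0.563, 0.639 and 0.342 of the Id1 counts in mAktDKO mice 1, 2 and 3, and 0.203, 0.251 and 0.246 in control mice 2, 3 and 4. Relative to Id3 they were 0.417, 0.458 and 0.345 in mAktDKO mice and 0.203, 0.219 and 0.203 in controls. Both ratios were higher in each mAktDKO mouse than in any control mouse, whereas the ratio of Id3 to Id1 overlapped (0.990 to 1.39 in mAktDKO, 1.00 to 1.21 in controls). The ratios were chosen after the values were seen, so they are descriptions without a test, and 4 of the 8 formed did not overlap between the groups.

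The bases before the start sites of Id2 and Id3 are shown because these Id genes differ in their values, and those of Bmpr1a and Bmpr2 because both receptors were higher in each mAktDKO mouse. They are the 250 bases before each RefSeq start (GRCm38.p6), 5′ to 3′ on the gene's strand, at chr12:25096093-25096342 for Id2 (minus), chr4:136143572-136143821 for Id3 (plus), chr14:34502547-34502796 for Bmpr1a (minus) and chr1:59764029-59764278 for Bmpr2 (plus). Capitals mark GGCGCC, a GC-rich motif of SMAD1 and SMAD5, CAGAC, the short SMAD-binding motif (GTCTG on the other strand), and CANNTG, the E-box.
Id2: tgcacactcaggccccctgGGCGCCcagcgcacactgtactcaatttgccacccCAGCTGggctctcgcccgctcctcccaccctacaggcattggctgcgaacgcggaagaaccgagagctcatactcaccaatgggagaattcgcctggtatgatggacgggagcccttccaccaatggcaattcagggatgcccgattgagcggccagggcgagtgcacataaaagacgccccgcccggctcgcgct
Id3: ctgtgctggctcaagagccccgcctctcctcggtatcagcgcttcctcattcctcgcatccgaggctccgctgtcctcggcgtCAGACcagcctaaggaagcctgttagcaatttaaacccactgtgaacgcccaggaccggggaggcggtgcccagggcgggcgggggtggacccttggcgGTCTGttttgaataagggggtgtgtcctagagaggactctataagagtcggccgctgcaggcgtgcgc
Bmpr1a: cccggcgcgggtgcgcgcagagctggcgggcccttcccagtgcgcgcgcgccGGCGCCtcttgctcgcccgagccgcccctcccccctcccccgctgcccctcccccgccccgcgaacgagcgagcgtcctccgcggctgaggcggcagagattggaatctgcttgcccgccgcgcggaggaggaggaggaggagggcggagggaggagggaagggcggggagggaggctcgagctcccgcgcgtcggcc
Bmpr2: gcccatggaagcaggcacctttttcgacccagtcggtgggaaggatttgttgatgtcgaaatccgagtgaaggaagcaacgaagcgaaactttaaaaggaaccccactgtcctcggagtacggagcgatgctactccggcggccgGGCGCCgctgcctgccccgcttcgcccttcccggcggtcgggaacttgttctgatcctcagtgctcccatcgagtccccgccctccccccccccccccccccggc
GGCGCC begins 231 bases before the start in Id2, 198 in Bmpr1a and 105 in Bmpr2, and Id2 also holds an E-box that begins 196 bases before its start. GGCGCC also lies in 2 windows of Smad5, whose groups overlapped, so that 4 of the 8 genes matched hold it. E-boxes also lie in Bmp4, with 3, and in Smad5, and no motif was particular to the genes that separated the groups. Id3 holds CAGAC 167 and 68 bases before its start, the second on the other strand. Both strands were searched over windows of 300 bases (250 before the start and 50 from it). GGCGCC was found in 11.9%, CAGAC in 49.6% and CANNTG in 72.3% of the 32851 windows of all genes in the RefSeq table, and GTAAACA, a FoxO motif, in 3.65% of them and in no window of the 8 genes matched. Matches are descriptions of these letters and not binding sites. Entries for Id1 and Nog were not matched.

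Of the ligand and its antagonist, Bmp4 overlapped between the groups while Nog was lower in each mAktDKO mouse. Nog (chr11:89300638-89302332, minus strand, a single exon) had 3.49, 3.35 and 3.57 CPM in mAktDKO mice 1, 2 and 3, and 6.22, 4.45 and 5.90 CPM in control mice 2, 3 and 4. The mAktDKO mice lay close together, and control mouse 3 was the nearest control. The means were 3.47 ± 0.107 and 5.52 ± 0.944 CPM (SD, n = 3 each), so that the mAktDKO level was 1.59-fold lower (95% interval 1.20 to 2.11). The log2 fold change was -0.67 (SE 0.18) with an edgeR adjusted p of 0.0807 and a DESeq2 adjusted p of 0.0981. Nog rests on 52 to 89 counts a mouse. Counting error alone is 13.9% at 52 counts, more than the spread among the mAktDKO mice.

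Bmp4 (chr14:46383520-46390669, minus strand) had 4.38, 3.23 and 2.74 CPM in mAktDKO and 2.73, 3.21 and 2.95 CPM in control EDL. mAktDKO mouse 1 was above all other mice, and mice 2 and 3 lay within or next to the control range. The log2 fold change was 0.22 (SE 0.22, edgeR adjusted p = 0.556) with a 95% interval of -0.28 to 0.73, on 39 to 69 counts a mouse. It was 0.016 without mAktDKO mouse 1 and 0.37 with library totals. Bmp4 shares exon sequence with the antisense gene Gm15217, which had 0 counts in every mouse. Bmp4 counts were 1.25, 0.964 and 0.769 of the Nog counts in mAktDKO mice and 0.438, 0.721 and 0.500 in controls, without overlap.

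Bmpr1a and Bmpr2 were the most highly expressed of the 10 genes, and their levels were slightly higher in mAktDKO EDL while Acvr1 overlapped. Bmpr2 (chr1:59763400-59879014, plus strand), a type II receptor of BMP ligands, had 284, 324 and 335 CPM in mAktDKO and 269, 265 and 277 CPM in control EDL. mAktDKO mouse 1 was only just above the highest control. The means were 315 ± 26.8 and 271 ± 6.18 CPM (SD, n = 3 each), a 1.16-fold difference (95% interval 1.01 to 1.33, edgeR adjusted p = 0.174). Its log2 fold change was 0.22, and 0.35 with library totals (edgeR adjusted p = 0.0595). Bmpr1a (chr14:34410734-34503341, minus strand), the type I receptor also called ALK3, had 165, 177 and 183 CPM in mAktDKO and 151, 164 and 159 CPM in control EDL. The groups again only just separated, between mAktDKO mouse 1 and control mouse 3. Its fold was 1.11 with a 95% interval of 0.979 to 1.25 (edgeR adjusted p = 0.274). Its log2 fold change was 0.15, and 0.28 with library totals (edgeR adjusted p = 0.0835).

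Acvr1 (chr2:58388644-58567157, minus strand), the type I receptor ALK2, had 28.2, 32.3 and 29.8 CPM in mAktDKO and 35.1, 29.0 and 36.7 CPM in control EDL. Control mouse 3 lay among the mAktDKO mice, and the log2 fold change was -0.16 (SE 0.11, edgeR adjusted p = 0.380). It was -0.021 with library totals, -0.095 without control mouse 4 and -0.26 without control mouse 3. Bmpr2 counts were 10.1, 10.05 and 11.3 times the Acvr1 counts in mAktDKO mice and 7.68, 9.14 and 7.55 times in controls, without overlap. The ratio of Bmpr2 to Bmpr1a overlapped, at 1.72 to 1.84 in mAktDKO and 1.62 to 1.79 in control EDL.

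**Figure D2:**
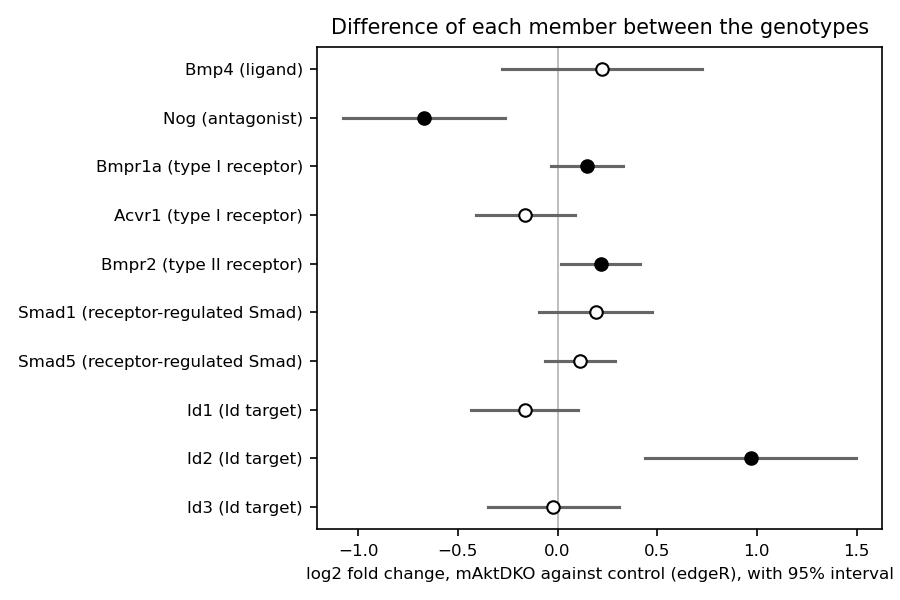
Log2 fold change of each of the 10 genes (horizontal axis, mAktDKO against control, edgeR) with its 95% interval as a bar, with filled circles for genes whose groups did not overlap. The intervals of Nog, Bmpr2 and Id2 do not include 0, and the Id2 value of 0.97 is the farthest from 0.

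Smad1 and Smad5, which carry the signal of these receptors to the nucleus, overlapped between the groups. Smad1 (chr8:79338395-79399518, minus strand) had 23.7, 25.9 and 24.2 CPM in mAktDKO and 17.6, 23.0 and 24.1 CPM in control EDL. Control mouse 2 was the lowest of the 6, and without it the log2 fold change of 0.19 (SE 0.12, edgeR adjusted p = 0.365) was 0.062, while with library totals it was 0.33. Smad5 (chr13:56703010-56742377, plus strand) had 75.3, 84.4 and 82.4 CPM in mAktDKO and 72.3, 76.0 and 75.7 CPM in control EDL. mAktDKO mouse 1 lay within the control range, and the log2 fold change was 0.11 (SE 0.078, edgeR adjusted p = 0.392) with a 95% interval of -0.064 to 0.29, and 0.25 with library totals. The ratio of Smad5 to Smad1 overlapped, at 3.18 to 3.41 in mAktDKO and 3.14 to 4.10 in control EDL.

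An exact permutation test (two-sided) of the mean log2 CPM of single genes gave p = 0.1 for Id2, Nog, Bmpr1a and Bmpr2, the smallest value that 3 mice against 3 allow, and 0.2 to 0.9 for the other genes. When each mouse was left out in turn, the log2 fold change of Id2 was 0.73 to 1.14 and that of Nog -0.81 to -0.58. Without control mouse 2, the library that stands apart, Id2 had 0.88, Nog -0.58, Bmpr2 0.21 and Bmpr1a 0.11 (edgeR adjusted p = 0.116, 0.157, 0.259 and 0.465).

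**Figure D3:**
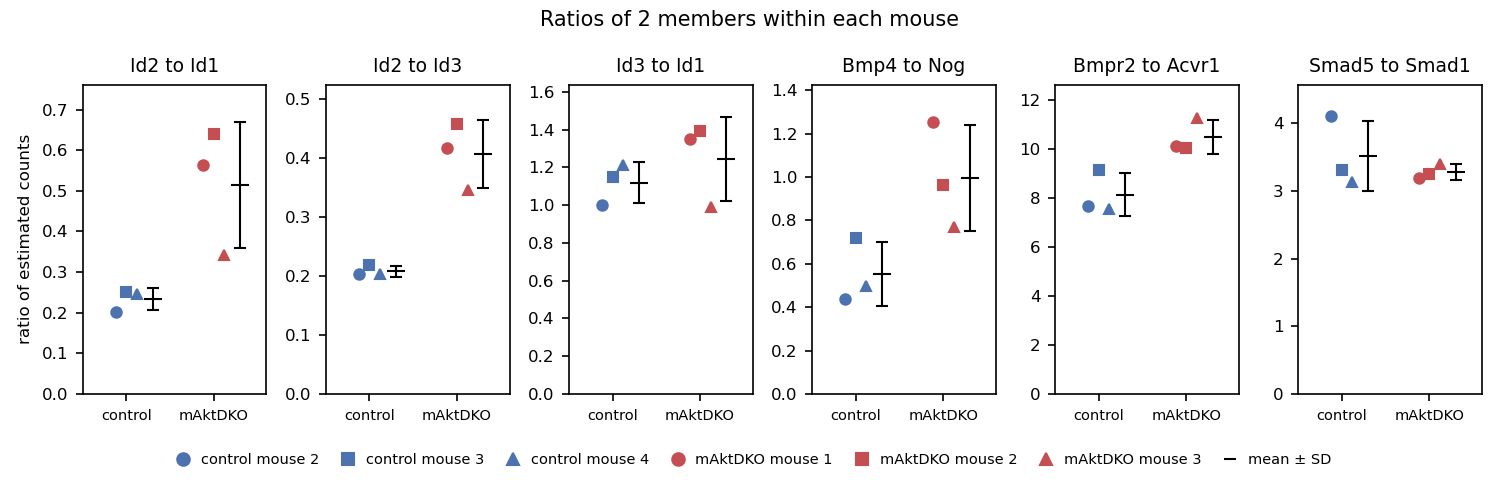
Ratio of the estimated counts of 2 of the genes within each mouse, with 1 point per mouse and the mean ± SD of 3 mice beside each group. Id2 to Id1, Id2 to Id3, Bmp4 to Nog and Bmpr2 to Acvr1 separate the groups, and Id3 to Id1 and Smad5 to Smad1 overlap.

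To compare levels between genes, CPM was divided by the length of the longest principal transcript. Per kilobase, Bmpr1a stood highest in control EDL with a mean of 26.5 CPM, followed by Bmpr2 with 21.0, Id1 with 15.0, Id3 with 12.3, Smad5 with 11.3, Acvr1 with 10.2, Smad1 with 6.96, Nog with 3.26, Id2 with 1.66 and Bmp4 with 1.43 CPM per kilobase. In this order Id1 and Id3, Id3 and Smad5, Smad5 and Acvr1, and Id2 and Bmp4 overlapped between mice, and the other neighbours did not. In mAktDKO EDL the order differed at the low end, where Id2 with 3.23 stood above Nog with 2.05 and Bmp4 with 1.67 CPM per kilobase. Id2 and Nog thus exchanged places between the genotypes, and Smad5 with 12.3 and Id3 with 12.1 CPM per kilobase did so too while overlapping between mice.

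Of 73 further genes of the pathway, sorted by role, 60 passed the filter. None was called at an adjusted p under 0.01 by edgeR and 1 at 0.05, beside 1.18% of all genes. DESeq2 gave an adjusted p for 53 of them and called 2 at 0.01, Chrdl1 and Myog, beside 3.09% of all genes it adjusted. At 0.05 it called 6, with Bmp5, Fst, Tcf12 and Dach2 in addition, beside 7.33%. At an unadjusted p under 0.05 there were 18, of which 13 were higher and 5 lower in mAktDKO EDL, beside 11.4% and 13.1% of all genes. The groups did not overlap in 18 of the 60, a share of 30.0% beside 31.1% of all genes, and the median log2 fold change of the 60 was 0.092. These counts depended on the scaling. With library totals 47 of the 60 were above 0, beside 70.4% of all genes, against 37 with TMM. At an unadjusted p under 0.05, 18 were then higher and 1, Dach2, lower, beside 23% and 5.02% of all genes, and 20 were higher and 0 lower without overlap, beside 26.5% and 6.92%. At an adjusted p under 0.05 edgeR then called 4, Chrdl1, Bmp5, Fbxo30 and Tcf12, beside 1.63% of all genes.

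The gene called at 0.05 was Chrdl1, which encodes a secreted antagonist that binds BMP4. Chrdl1 was at 28.7 ± 1.71 CPM in mAktDKO and 14.6 ± 3.54 CPM in control EDL (SD, n = 3 each), a log2 fold change of 0.97 (SE 0.16, edgeR adjusted p = 0.0394). Chrdl1 no longer passed 0.05 without any one of the mAktDKO mice or without control mouse 3 (edgeR adjusted p = 0.116, 0.178, 0.115 and 0.0911). Few genes of the whole table passed 0.05 in those fits, 4, 3, 5 and 26, against 152 with all mice. Of the 15 antagonists and modulators tested, 12 were above 0 (52.5% of all genes), with a median of 0.22 and 3 not overlapping, all higher (14.6% of all genes): Chrdl1, Fst (follistatin, which binds activins and some BMPs), with a log2 fold change of 0.56 (edgeR adjusted p = 0.0784), and Twsg1, a modulator of BMP and chordin, with 0.22 (edgeR adjusted p = 0.149). With library totals 13 of the 15 were above 0 and 5 were higher without overlap, beside 70.4% and 26.5% of all genes. The difference in Nog was opposite in sign to that in these antagonists. Chrdl1 and Fst are also expressed by fibroblast-like cells, and markers of fibro-adipogenic progenitors, the connective tissue cells of muscle, were above 0 in 10 of 10 and summed to 27956 to 33848 CPM in mAktDKO and 11031 to 27339 CPM in control EDL. Most of that sum was the collagen genes Col1a1, Col1a2 and Col3a1, and control mouse 2 was alone at the low end, with 11031 CPM against 23408 and 27339 CPM in control mice 3 and 4. Dcn, Col1a2 and Pdgfra, with log2 fold changes of 0.57, 0.70 and 0.25, were the 3 of 10 that did not overlap, all higher, beside 14.6% of all genes, and the other 7 were between 0.052 and 0.62. DESeq2 gave Dcn an adjusted p of 0.000346, and with library totals 6 of the 10 were higher without overlap, beside 26.5% of all genes. Tendon cell markers were above 0 in 6 of 6, with a median of 0.40 and 3 higher without overlap, beside 14.6% of all genes (4 of 6 with library totals, beside 26.5%), and summed to 1231 to 1774 CPM in mAktDKO and 943 to 1273 CPM in control EDL. DESeq2 gave the tendon genes Tnmd and Fmod an adjusted p of 0.00413 and 0.00712. The part of these cells in these differences was not tested. In whole muscle, more or fewer cells of a type and more or less RNA per cell cannot be told apart.

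Of 13 other ligands, 5 were tested, 3 above and 2 below 0. Bmp5 was at 14.4 ± 1.19 CPM in mAktDKO and 9.29 ± 1.12 CPM in control EDL (SD, n = 3 each; log2 fold change 0.63, edgeR adjusted p = 0.0520), and Bmp6 was at 7.20 ± 0.535 and 9.31 ± 1.52 CPM (-0.37, edgeR adjusted p = 0.172). Both separated the groups, in opposite directions, as 2 of the 5 tested beside 31.1% of all genes, although Bmp6 overlapped with library totals (-0.23), and Bmp3 overlapped (0.39, edgeR adjusted p = 0.336). Bmp8b and Bmp10 had 0 counts in every mouse and the other 6 ligands left untested had at most 4. Of 10 further receptors and co-receptors, 8 were above 0, beside 52.5% of all genes, with a median of 0.099, and 2 were higher without overlap, beside 14.6%. The type I receptor Bmpr1b (0.38, edgeR adjusted p = 0.138) and the type II receptor Acvr2a (0.21, edgeR adjusted p = 0.138) separated the groups, and the co-receptor Eng (endoglin, 0.19, edgeR adjusted p = 0.215) did not. With library totals 10 of 10 were above 0, beside 70.4% of all genes, with a median of 0.24 beside 0.16 over all genes. Of the 10, 6 were then higher without overlap, Eng (0.32) among them, beside 26.5% of all genes.

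Of the 15 other Smads and cytoplasmic regulators, 4 were above and 11 below 0, beside 52.5% of all genes above 0, with a median of -0.094, and 4 separated the groups, beside 31.1%. With library totals 9 were above and 6 below 0, beside 70.4% of all genes above 0. The median of the 15 stayed below that of all genes, at 0.043 beside 0.16 with library totals and -0.094 beside 0.017 with TMM. Smad6, an inhibitory Smad that BMP signalling itself induces, was at 6.98 ± 0.885 CPM in mAktDKO and 9.04 ± 1.39 CPM in control EDL (SD, n = 3 each; log2 fold change -0.37, edgeR adjusted p = 0.185), and Lemd3, an inner nuclear membrane protein that binds Smads, had -0.20 (edgeR adjusted p = 0.189). Both were lower in each mAktDKO mouse with TMM but overlapped with library totals, where Smad6 had -0.23 and Lemd3 -0.059. Smad9, also called Smad8, had 0.88 (edgeR adjusted p = 0.174) on 9 to 31 counts and overlapped with TMM. With library totals it had 1.02 and was one of 3 of the 15 higher without overlap, beside 26.5% of all genes. Of 6 other BMP target genes, 4 were tested and none separated the groups: Msx1 had 0.49, Hey1 0.30 and Atoh8 -0.15 (edgeR adjusted p = 0.313, 0.338 and 0.602).

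Among Id4, the E proteins that Id proteins bind and the myogenic factors, 6 of 8 were above 0 with a median of 0.25, and 4 separated the groups, all higher, beside 52.5% and 14.6% of all genes. Myog (myogenin) was at 11.4 ± 2.88 CPM in mAktDKO and 5.49 ± 1.77 CPM in control EDL (SD, n = 3 each; log2 fold change 1.06, edgeR adjusted p = 0.0642). The E proteins Tcf12 (0.40, edgeR adjusted p = 0.0616) and Tcf4 (0.34, edgeR adjusted p = 0.106) were higher in each mAktDKO mouse. The E protein Tcf3 overlapped between the groups (-0.038, edgeR adjusted p = 0.891). With library totals 7 of the 8 were above 0 and 4 again higher without overlap, beside 70.4% and 26.5% of all genes. Of the genes that link BMP signalling to denervation, the ubiquitin ligase gene Fbxo30 had 0.30 (edgeR adjusted p = 0.0905), Hdac4 -0.18 (0.281) and Dach2, a repressor of Myog, -1.12 (0.0849). All 3 separated the groups, beside 31.1% of all genes, with Dach2 at 2.26 to 2.63 CPM in mAktDKO mice and 2.80 to 6.43 CPM in controls. With library totals Fbxo30 alone of the 3 separated them, and Hdac4 had -0.039 and Dach2 -0.98.

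**Figure D4:**
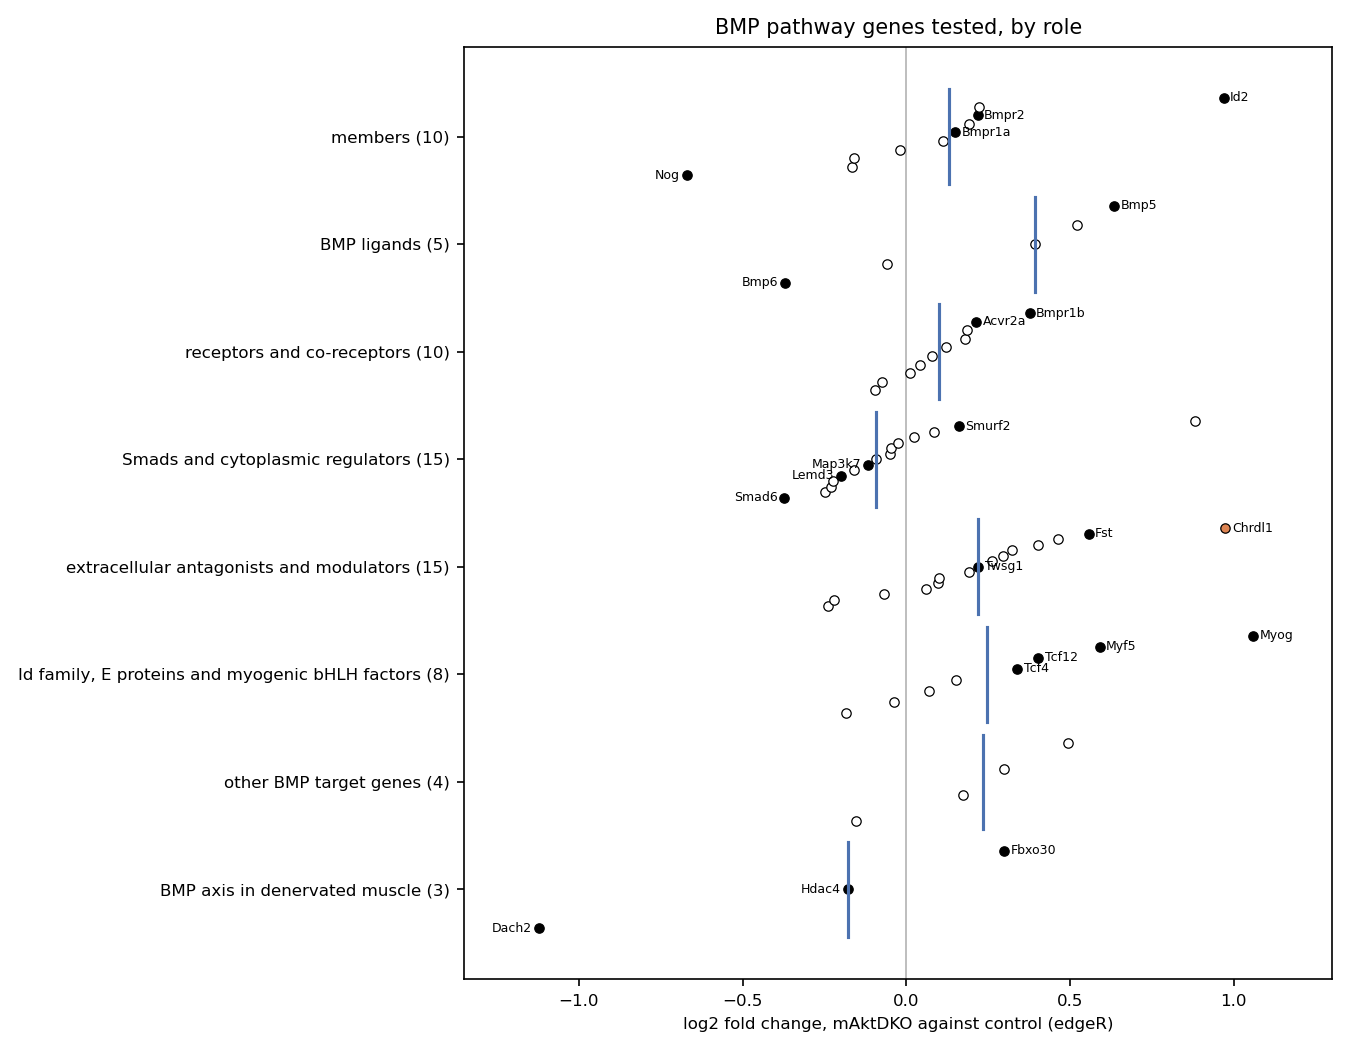
Log2 fold change (horizontal axis, mAktDKO against control, edgeR) of the 10 members and of the 60 further pathway genes tested, by role, with the median of each group of genes as a blue bar. Named filled points are genes whose groups did not overlap, the orange point is Chrdl1 (adjusted p = 0.0394), and open points are genes whose groups overlapped.

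The summed markers of 12 cell types or gene groups were set beside Id2. In the mAktDKO mice 3 of the 12 sums had the same order of mice as Id2 (mouse 2 highest, mouse 3 lowest), those of adipocytes, slow fibres and satellite cells, and 9 did not. In the control mice, where Id2 was highest in mouse 4 and lowest in mouse 2, 3 sums had the order of Id2, those of satellite cells, fibro-adipogenic progenitors and Schwann cells, and the adipocyte and slow fibre sums had another. Adipocyte markers summed to 206, 240 and 153 CPM in mAktDKO mice 1, 2 and 3 and to 138, 132 and 161 CPM in control mice 2, 3 and 4, and 6 of 6 were above 0 with 1 not overlapping, beside 31.1% of all genes. Slow fibre markers summed to 1123, 1316 and 679 CPM in mAktDKO mice and to 636, 884 and 607 CPM in controls, with 6 of 7 above 0. Satellite cell markers summed to 50.9, 54.4 and 45.4 CPM in mAktDKO mice and to 48.0, 50.8 and 54.6 CPM in controls. No marker of the adipocyte or slow fibre list was at 0 counts in any mouse. All 3 sums overlapped between the groups. The adipocyte sum was mostly Fabp4, which had a log2 fold change of 0.35. The median of the 6 adipocyte markers was 0.94, beside 0.97 for Id2, and Pparg had 0.33. At an unadjusted edgeR p under 0.05, 4 of 6 were higher, beside 11.4% of all genes. In mAktDKO mouse 3 Adipoq, Plin1, Cidec, Lep and Pparg lay within the control range (Adipoq at 5.69 CPM beside 4.59 to 9.52 CPM). Fabp4, the other marker of the list, lay above its control range in that mouse, at 130 CPM beside 114 to 123 CPM. Id2 in that mouse lay above its control range. The median of the slow fibre markers was 0.44. Macrophage and leukocyte markers (6 of 6 tested above 0, and Ptprc, Adgre1 and Cd68 higher without overlap) summed to 111 to 139 and 75.3 to 119 CPM, and erythrocyte markers (5 of 5 above 0, and 2 higher without overlap) to 150 to 320 and 114 to 168 CPM, in mAktDKO and control EDL. Schwann cell markers had 5 of 6 above 0 and 2 higher without overlap, and mural cell markers 5 of 8 and 2. Beside these counts stand 14.6% of all genes that were higher without overlap. Immediate early genes were above 0 in 6 of 8 with a median of 0.38, and 0 did not overlap, beside 31.1% of all genes. Among them Egr1 had 1.88 (edgeR adjusted p = 0.108). The haemoglobin gene Hbb-bs, a near-identical copy of Hbb-bt, had 0 counts in every control mouse and 23.4, 9.22 and 10.004 CPM in mAktDKO mice 1, 2 and 3 (edgeR adjusted p = 0.0180). Hba-a2 was the other erythrocyte gene higher without overlap, while Hba-a1 overlapped, and their shares varied between mice. Control mouse 3 had 117 CPM of Hba-a1 and 25.9 CPM of Hba-a2, and mAktDKO mouse 3 had 23.6 and 102 CPM. Fast fibre markers summed to 129956 to 144676 CPM in mAktDKO and 149755 to 160741 CPM in control EDL, without overlap, but overlapped with library totals (141363 to 145974 and 144270 to 156127 CPM). Of the single markers 10 of 10 were below 0 and 7 lower without overlap, beside 16.6% of all genes, and with library totals 9 of 10 were below 0 and 5 lower without overlap, beside 6.92%. The part of these cell types in the Id2 difference was not tested. Endothelial cells express Id1 and Id3, and of their 12 markers 7 were above and 5 below 0 (median 0.025), and 0 did not overlap, beside 31.1% of all genes. Emcn (0.46) and Cdh5 (0.32) were higher at an unadjusted edgeR p of 0.0357 and 0.0349. With library totals 12 of 12 were above 0, beside 70.4% of all genes, with a median of 0.16, beside 0.16 over all genes. Then 3 (Tek, Emcn and Ptprb) were higher without overlap, beside 26.5%.

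**Figure D5:**
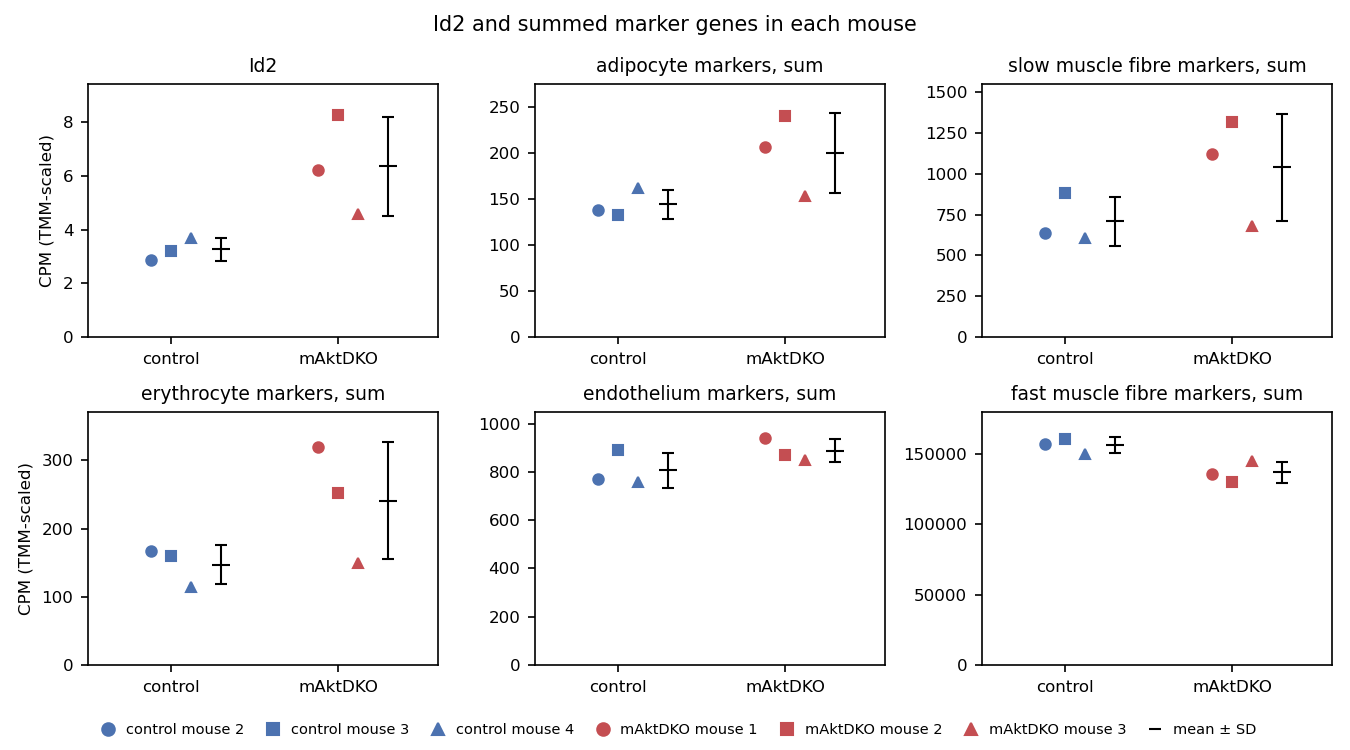
CPM (scaled by TMM) of Id2 and summed CPM of marker genes of 5 cell types, with 1 point per mouse and the mean ± SD of 3 mice beside each group. Id2 and the fast fibre sum separate the groups in opposite directions with this scaling, and the adipocyte, slow fibre, erythrocyte and endothelial sums overlap between them.

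The genes most like Id2 in pattern, by the root mean square difference of centred log2 CPM over the 6 mice among 12891 genes, were Hist4h4 (0.071), a histone gene, Aoc3 (0.091), an amine oxidase abundant in fat and vessel wall, and Ephb2 (0.13), an ephrin receptor, beside an SD of 0.52 for Id2 itself. Hist4h4 was at only 1.90, 2.16 and 1.23 CPM in mAktDKO mice and 0.769, 0.875 and 0.983 CPM in control mice, so counting error limits its likeness. Aoc3 was at 42.6, 58.9 and 29.3 CPM in mAktDKO mice and 22.4, 23.8 and 28.4 CPM in control mice. Its order of mice, with mouse 2 highest and mouse 3 lowest of the mAktDKO mice, follows from its choice by likeness to Id2. For Id1 they were Usp28 (0.039), a deubiquitinase, Pspc1 (0.039), a paraspeckle protein, and Cab39 (0.044), a partner of the kinase LKB1, beside an SD of 0.14 for Id1 itself.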

How the data were processed

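The deposited values are estimated counts per gene, which the authors obtained with RSEM 1.3.1 after mapping to mm10 with STAR (2.6.1b in the submitters' processing notes). The libraries were strand-specific and depleted of rRNA, and the gene annotation is not given in the sources used here. The counts were rounded to whole numbers. The quasi-likelihood test of edgeR 4.0.16 (R 4.3.3), with genotype as the only term, was run after filterByExpr had removed genes of low count (minimum 10) and TMM factors had been computed. P-values were Benjamini-Hochberg adjusted over the 12892 genes tested, and a gene was called at an adjusted p under 0.01. CPM is the count divided by the TMM-scaled library size in units of 1000000 counts, and likeness of pattern used log2 CPM with a prior count of 2. Alternatives were DESeq2 1.42.0, other scalings, filters and thresholds, and leaving out each mouse. The computation was tested on simulated data. Positions and transcript lengths are from GENCODE M21 (GRCm38, the assembly of mm10).

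The 10 genes and the lists of pathway and marker genes were chosen with earlier results of these data known. Named from each pathway list were at most the 3 genes with the smallest p and any gene called, and as most like Id1 and like the gene of smallest p, the 3 nearest each. Id4, Tcf3, Bmp8b, Bmp10 and the marker genes were named outside this rule, after their values were seen. Counting error limits Bmp4, Nog and Id2 most, since they rest on at most 138 counts a mouse.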

Additional observations from a re-analysis of the deposited data

How the results depend on the processing

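None of the 10 genes was called at an adjusted p under 0.01 under any alternative run. Of the comparisons of a member with its main value, 116 kept direction and side of the threshold (a changed threshold alone is not counted). The other 4 were Id3, whose log2 fold change turned from -0.021 to 0.12 with library totals (adjusted p = 0.656), 0.0028 without mAktDKO mouse 1, 0.057 without mAktDKO mouse 3 and 0.099 without control mouse 4 (leaving out one mouse gave -0.15 to 0.099). The number of genes called, 3 in the main test, was 328 with DESeq2, 32 without the filter and 152 at an adjusted p under 0.05. Leaving out one mouse gave 0 to 8: it was 0 without any one of the mAktDKO mice (2441, 1871 and 2794 genes at an unadjusted edgeR p under 0.05). The cause was not tested. The adjusted p of Id2 was 0.0213 with DESeq2 and 0.0507 without the filter, the lowest of the edgeR alternatives. With 3 mice a group and counts as low as 39, differences in Bmp4, Nog and Id2 are the least precise. No paired analysis was possible because the numbers of the control mice in the table (2 to 4) are not those of their labels (1 to 3), and no source ties a mAktDKO mouse to a control mouse.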
